A study of Mus musculus with 8 samples.

Results

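The 10 genes described here, Chil3, Chil4, Retnla, Mrc1, Tgm2, Il1rn, Ear2, Rnase2a, Flt1 and Matk, are marker genes of mouse macrophages stimulated with interleukin 4 (IL-4). They were taken by symbol from a list of names, and all are reported, out of 24421 gene symbols counted in each RNA-seq library. Bone marrow-derived macrophages (BMDM), grown in culture from mouse bone marrow, were sequenced after 24 h of IL-4 in all 8 libraries. CKO cells came from OPA1f/f; Lyz2-Cre mice (4 libraries, replicates 2, 6, 7 and 8), in which Cre recombinase is driven from the myeloid gene Lyz2. FLOX cells came from OPA1f/f mice, named without the driver (4 libraries, replicates 3, 4, 6 and 7). Floxed Opa1 alleles and IL-4 are thus shared by both groups, no unstimulated library was compared, and neither the age of the mice nor pooling is given in the labels. Effects of Opa1 loss, of the driver and of a batch aligned with genotype cannot be told apart in this design. The labels do not say whether libraries of a group came from separate mice, so p-values measure only the spread between these libraries.

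IL-4 binds a receptor whose IL-4Rα chain (Il4ra) recruits JAK kinases, which phosphorylate the transcription factor STAT6. STAT6 dimers bind DNA at TTC and GAA arms set a few bases apart and switch on the programme called alternative activation. In mice this programme is read out by the secreted proteins Chil3 (Ym1), Chil4 (Ym2) and Retnla (Fizz1), by the mannose receptor Mrc1 (CD206) and by arginase 1.

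The promoters of the 3 secreted markers are shown because their genes had the largest falls among the 9 tested genes, and because each holds a spaced TTC and GAA pair. The 250 bases before the RefSeq start sites (GRCm38.p6) were searched for TTCNNNGAA and TTCNNNNGAA, both of which read the same on either strand. Each line runs 5′ to 3′ along the gene, with 50 bases on either side of the match in capitals. The Chil3 stretch lies on the minus strand at chr3:106167678-106167786, the Chil4 stretch on the minus strand at chr3:106219621-106219729 and the Retnla stretch on the plus strand at chr16:48842414-48842523.
Chil3: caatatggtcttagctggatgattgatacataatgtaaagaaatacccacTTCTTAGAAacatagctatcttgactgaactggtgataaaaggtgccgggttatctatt
Chil4: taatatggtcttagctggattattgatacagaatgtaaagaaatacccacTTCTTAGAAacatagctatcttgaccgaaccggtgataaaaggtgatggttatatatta
Retnla: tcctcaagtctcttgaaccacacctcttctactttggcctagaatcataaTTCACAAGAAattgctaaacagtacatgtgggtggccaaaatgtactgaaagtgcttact

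Chil3 and Chil4 held the same match, TTCTTAGAA, which began 172 bases before the start site of Chil3 and 200 bases before that of Chil4. The printed Chil3 and Chil4 stretches were identical at 94 of 109 positions. The Retnla match, TTCACAAGAA, has 4 bases between its arms and began 145 bases before the start site. TTCNNNNGAA was searched as the STAT6 form, and TTCNNNGAA, the only form found for Chil3 and Chil4, as a form of STAT factors in general. STAT6 binding was not tested. RefSeq promoters were found for 9 of the 10 genes, all but Tgm2. A pair of alternative Il1rn starts shared 1 match, TTCCCAGGAA, beginning 121 bases before one and 201 before the other, and its first start held neither pattern. No window of these genes held both patterns. None was found in the windows of Mrc1, Ear2, Rnase2a, Flt1 or Matk, which says only that these letters are not there. Of 32851 promoters of this length, 7.02% held TTCNNNGAA and 5.85% held TTCNNNNGAA.

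Assigned read pairs numbered 11764855 in the shallowest library (CKO replicate 2) and 18939948 in the deepest (FLOX replicate 6). All 10 macrophage markers checked were tested, Adgre1 and Csf1r among them, and the 6 islet markers (Ins1, Ins2, Gcg, Sst, Iapp and Pdx1) had 0 counts in every library, although the extraction text speaks of islets. Opa1 averaged 100.1 ± 4.42 CPM in CKO libraries and 114 ± 11.6 CPM in FLOX libraries (SD, n = 4 each, CPM being counts scaled to library size; edgeR log2 fold change -0.19, SE 0.07, adjusted p = 0.0544). With upper-quartile factors (edgeR adjusted p = 0.0446), or without FLOX replicate 3 (0.0182), 6 (0.0496) or both (0.00139), it passed, and gene totals do not resolve the floxed exons. Lyz2, which carries the Cre insertion, averaged 2030.5 ± 251 CPM in CKO libraries and 7439 ± 597 CPM in FLOX libraries (SD, n = 4 each), with no overlap. Of the variance, 70.2% lay on a first principal component that separated the groups, and 12.7% on a second that separated FLOX replicates 3 and 6 from FLOX replicates 4 and 7.

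The 10 genes did not move together. In CKO, 4 of them were lower (Chil3, Chil4, Retnla and Matk), 2 were higher (Tgm2 and Il1rn), 3 did not pass the test (Mrc1, Rnase2a and Flt1), and Ear2 had too few counts to be tested. Genes were called at an adjusted p under 0.05 in edgeR's quasi-likelihood test over 11519 genes, of which 45.4% were called, 23.8% higher and 21.6% lower in CKO. The median log2 fold change of the 9 tested genes was -0.13, and over all tested genes -0.02. The CPM ranges of the groups were apart for the 6 called genes and overlapped for the other 3, where 42.7% of all tested genes had ranges apart, 22.7% with CKO above and 20% with CKO below. Each of the 6 kept its direction and its call in every alternative tried.

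**Figure D1:**
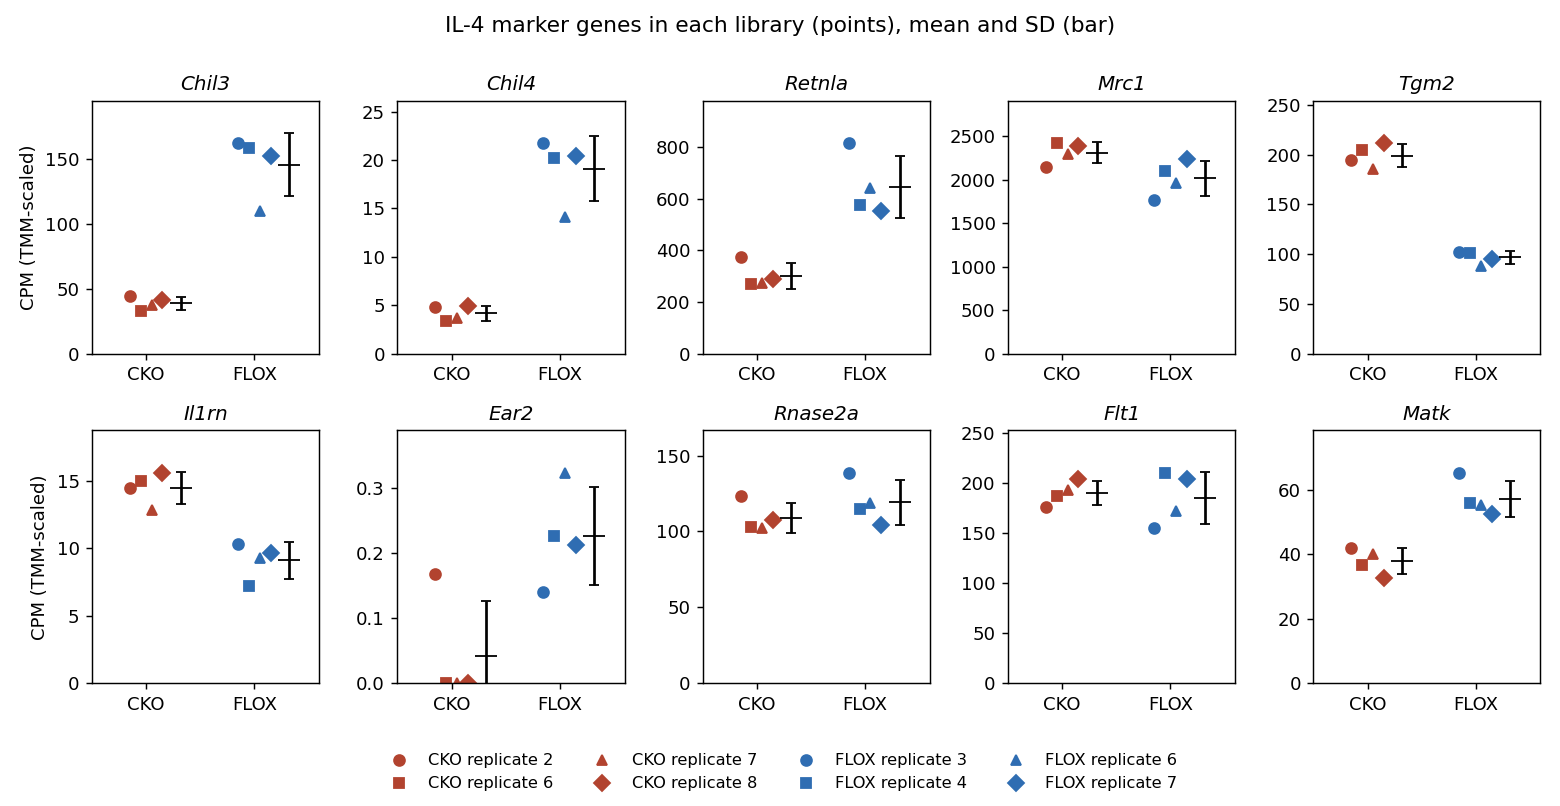
CPM of each of the 10 genes (vertical axes, linear, 1 panel per gene) in CKO (red) and FLOX (blue), with 1 symbol per library and bars for the mean and SD over 4 libraries. The points of the groups are apart for Chil3, Chil4, Retnla, Tgm2, Il1rn and Matk, and Ear2 stays under 0.4 CPM in every library.

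Chil3 encodes a secreted chitinase-like lectin without chitinase activity that macrophages release in large amounts under IL-4. It stood at 44.3, 32.8, 37.4 and 41.4 CPM in CKO replicates 2, 6, 7 and 8, against 162, 158, 109.7 and 152 CPM in FLOX replicates 3, 4, 6 and 7. The groups were far apart: the lowest FLOX library, replicate 6, still lay well above the highest CKO library. Chil3 averaged 39.0 ± 5.00 CPM in CKO libraries and 145 ± 24.1 CPM in FLOX libraries (SD, n = 4 each). CKO thus held 26.8% of the FLOX level by the fit, with a 95% interval from 21.6% to 33.3% (edgeR log2 fold change -1.90, SE 0.13, adjusted p = 8.68e-07). These are bulk cultures, in which fewer cells expressing a gene and less RNA per cell cannot be told apart.

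Chil4 encodes a close relative of Chil3 encoded nearby on the same chromosome. It stood at 4.78, 3.36, 3.64 and 4.92 CPM in CKO replicates 2, 6, 7 and 8, against 21.7, 20.2, 14.1 and 20.4 CPM in FLOX replicates 3, 4, 6 and 7. As for Chil3, the groups did not overlap and FLOX replicate 6 was the lowest FLOX library. CKO held 21.8% of the FLOX level (95% interval 16.5% to 28.8%; edgeR log2 fold change -2.20, SE 0.16, adjusted p = 9.9e-07). By fold change Chil4 ranked 6 and Chil3 ranked 9 among the falls of all tested genes.

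Chil3 lies at chromosome 3, 106147554 to 106167564, and Chil4 at 106201490 to 106219507, both on the minus strand (GENCODE M21 on GRCm38, the assembly of mm10). Their main transcripts, 1539 bases each, were identical at 94.4% of aligned bases and shared 18.5% of their 50-base windows, so reads from such stretches could be split or lost between them. Chil4 took 9.73%, 9.29%, 8.87% and 10.6% of the summed Chil3 and Chil4 counts in CKO replicates 2, 6, 7 and 8, against 11.8%, 11.3%, 11.4% and 11.8% in FLOX replicates 3, 4, 6 and 7. The CKO shares were all lower than the FLOX shares. The exact binomial 95% intervals of single libraries overlapped between the groups, such as 8.42% to 13.2% in CKO replicate 8 and 10.1% to 12.7% in FLOX replicate 4. Such overlap does not decide whether the groups differ, and the difference in share was not tested. Summed into 1 gene, the pair had a log2 fold change of -1.93 (edgeR adjusted p = 9.24e-07).

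Retnla (chromosome 16, 48842551 to 48844461, plus strand) encodes a small secreted protein of the resistin family. It stood at 374, 269, 272 and 290.2 CPM in CKO replicates 2, 6, 7 and 8, against 815, 576, 640.1 and 551 CPM in FLOX replicates 3, 4, 6 and 7. CKO replicate 2 was the highest CKO library and FLOX replicate 3 the highest of all, and the groups did not overlap. Retnla averaged 301 ± 49.5 CPM in CKO libraries and 645 ± 119 CPM in FLOX libraries (SD, n = 4 each). CKO held 46.7% of the FLOX level, with a 95% interval from 37.0% to 58.9% (edgeR log2 fold change -1.10, SE 0.14, adjusted p = 7.16e-05). Of its relatives, Retnlb and Retnlg had 0 counts in every library.

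**Figure D2:**
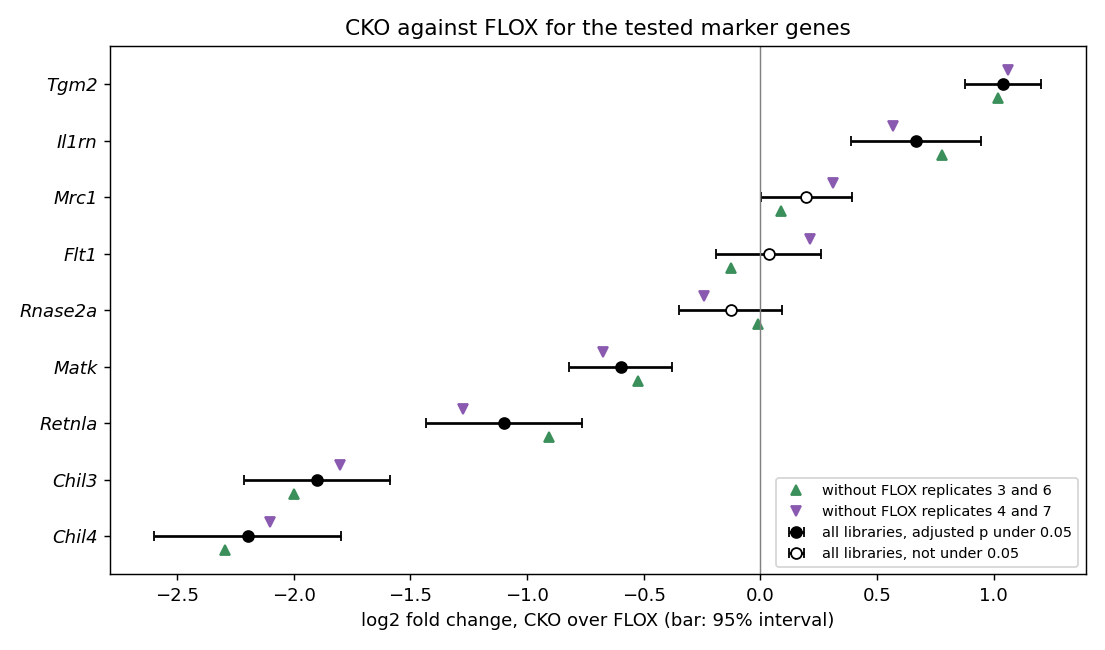
Log2 fold change of CKO over FLOX (horizontal axis) for the 9 tested genes, with 95% intervals over all libraries; filled circles passed an adjusted p of 0.05. Green triangles leave out FLOX replicates 3 and 6 and purple ones FLOX replicates 4 and 7; the intervals of Mrc1, Flt1 and Rnase2a lie near or across 0, and Flt1 moves from -0.13 to 0.21 with the libraries left out.

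Mrc1 (chromosome 2, 14229392 to 14332057, plus strand) encodes the endocytic mannose receptor, the surface protein most used to mark alternatively activated macrophages. It was the most counted of the 10, at 2145, 2421, 2290.5 and 2382 CPM in CKO replicates 2, 6, 7 and 8, against 1763, 2102, 1958 and 2239.7 CPM in FLOX replicates 3, 4, 6 and 7. The ranges overlapped, since FLOX replicate 7 lay above CKO replicate 2. The mean was 1.15-fold higher in CKO by the fit (2309.6 ± 122 CPM in CKO, 2016 ± 204 CPM in FLOX; SD, n = 4 each) and was not called (log2 fold change 0.20, 95% interval 0.00 to 0.39, edgeR adjusted p = 0.0611). Leaving out CKO replicate 2 (edgeR log2 fold change 0.25, adjusted p = 0.0282) or FLOX replicate 7 (0.25, adjusted p = 0.0197) made it pass. It took 68.8% to 74.0% of the counts of all 10 genes in CKO libraries and 54.5% to 65.3% in FLOX libraries. The 10 genes together held 0.316% to 0.343% of assigned pairs in CKO and 0.308% to 0.332% in FLOX, so their summed share overlapped between the groups. Mir511, which lies within Mrc1, had 0 counts and shares 0 exon bases with it.

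Flt1 (chromosome 5, 147561604 to 147726011, minus strand) encodes VEGF receptor 1, which binds VEGF-A, VEGF-B and placental growth factor and is also made by macrophages. It stood at 176, 187, 193 and 204 CPM in CKO replicates 2, 6, 7 and 8, against 156, 210.5, 172 and 204 CPM in FLOX replicates 3, 4, 6 and 7. The FLOX libraries spanned the whole CKO range. No difference was detected (edgeR log2 fold change 0.04, 95% interval -0.19 to 0.26, adjusted p = 0.778), and the sign turned when FLOX replicate 3 was left out (-0.041, adjusted p = 0.691). Flt1 is also an endothelial gene. Of 10 endothelial markers 3 were tested, Pecam1 and Kdr higher and Vwf lower in CKO, where 45.4% of all tested genes were called. Cldn5 had 0 counts in every library, and Cdh5, Tek, Tie1, Emcn, Erg and Esam stayed at or under 0.284 CPM in each. The summed level over all 10 was 264 to 301 CPM in CKO and 340 to 426 CPM in FLOX. Vwf alone made up most of that sum, at 232 to 271 CPM in CKO and 322 to 404 CPM in FLOX. The part of these markers in the Flt1 values was not tested.

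Tgm2 (chromosome 2, 158116402 to 158146436, minus strand) encodes transglutaminase 2, which cross-links proteins and is a marker shared by human and mouse alternatively activated macrophages. It was at 195, 204, 186 and 212 CPM in CKO replicates 2, 6, 7 and 8, against 103, 101, 88.5 and 95.3 CPM in FLOX replicates 3, 4, 6 and 7. Every CKO library lay far above every FLOX library, and both groups were tight. Tgm2 was 2.06-fold higher in CKO, with a 95% interval from 1.84 to 2.30 (199 ± 11.4 CPM in CKO, 96.9 ± 6.35 CPM in FLOX; SD, n = 4 each; edgeR log2 fold change 1.04, SE 0.07, adjusted p = 3.69e-07). It shares 370 exon bases with Rprd1b on the opposite strand, and without a known strand setting reads there cannot be assigned to either gene with certainty. Rprd1b averaged 34.6 ± 0.573 CPM in CKO libraries and 30.8 ± 2.02 CPM in FLOX libraries (SD, n = 4 each; edgeR adjusted p = 0.0582, or 0.0446 without CKO replicate 2 and 0.0266 without FLOX replicate 6).

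Il1rn (chromosome 2, 24336853 to 24351494, plus strand) encodes the interleukin 1 receptor antagonist, which occupies the receptor without signalling. It was at 14.5, 15.0, 12.9 and 15.6 CPM in CKO replicates 2, 6, 7 and 8, against 10.3, 7.19, 9.29 and 9.65 CPM in FLOX replicates 3, 4, 6 and 7. All CKO libraries lay above all FLOX libraries, with FLOX replicate 4 the lowest. Il1rn was 1.59-fold higher in CKO (95% interval 1.31 to 1.93; edgeR log2 fold change 0.67, SE 0.11, adjusted p = 0.000445). It rested on 173 to 232 counts per CKO library and 95 to 172 per FLOX library. Il1b, which encodes a cytokine that the antagonist blocks, averaged 0.0701 CPM in CKO and 0.257 CPM in FLOX and was too low to test.

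Matk (chromosome 10, 81252935 to 81263365, plus strand) encodes a kinase related to CSK that phosphorylates the inhibitory tyrosine of SRC family kinases. It was at 41.9, 36.7, 39.9 and 32.7 CPM in CKO replicates 2, 6, 7 and 8, against 65.3, 55.8, 55.2 and 52.6 CPM in FLOX replicates 3, 4, 6 and 7. The CKO libraries were all lower. CKO held 66.0% of the FLOX level (95% interval 56.7% to 76.9%; edgeR log2 fold change -0.60, SE 0.09, adjusted p = 0.000173).

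Rnase2a and Ear2 are ribonucleases of the eosinophil-associated family, which mouse macrophages also make under IL-4. Rnase2a (chromosome 14, 51255262 to 51256112, minus strand) was at 123, 103, 102 and 108 CPM in CKO replicates 2, 6, 7 and 8, against 139, 115, 118 and 104 CPM in FLOX replicates 3, 4, 6 and 7. The ranges overlapped, with FLOX replicate 3 above every CKO library, and no difference was detected (log2 fold change -0.13, 95% interval -0.35 to 0.09, edgeR adjusted p = 0.269). Ear2 (chromosome 14, 44102654 to 44103534, plus strand) had 2 counts in CKO replicate 2 and 0 in the other CKO libraries, against 2, 3, 6 and 3 counts in FLOX replicates 3, 4, 6 and 7. At 2 counts in all of CKO and 14 in all of FLOX, the depth-scaled ratio was 0.148, with an exact 95% interval from 0.0163 to 0.643 that covers counting error only. Without a filter on low counts Ear2 was called lower among 16366 tested genes (edgeR log2 fold change -2.49, SE 0.88, adjusted p = 0.0349), a fitted value that is no bound.

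Ear2 has near-identical relatives, and multiply aligned pairs were not assigned, so its counts are uncertain. Its transcript was 96.8% identical to that of Ear1 and 94.7% to that of Ear10, and 81.4% to that of Rnase2a, with which it shared 0 windows of 50 bases. Ear1 had 1 count in CKO and 3 in FLOX, and Ear10 had 0 in CKO and 8 in FLOX. Summed over the family, the log2 fold change was -0.13 (edgeR adjusted p = 0.26), which is that of Rnase2a. Of 12 markers of eosinophils, basophils and mast cells, 2 were tested and both were higher in CKO, as were 23.8% of all tested genes. Their summed level over the 12 was 6.37 to 10.2 CPM in CKO and 4.59 to 5.52 CPM in FLOX, and the defining Epx, Mcpt8, Prss34, Fcer1a and Ms4a2 had 0 counts in every library.

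Per length of merged exons the order of the 10 genes differed between the groups in the places of Chil3, Tgm2, Chil4 and Il1rn. As CPM per kilobase, CKO stood at 503 ± 82.6 for Retnla, 363 ± 19.2 for Mrc1, 158 ± 14.2 for Rnase2a, 43.2 ± 2.46 for Tgm2 and 23.9 ± 3.06 for Chil3 (SD, n = 4). FLOX stood at 1078 ± 199 for Retnla, 316 ± 32.0 for Mrc1, 173 ± 21.1 for Rnase2a, 89.0 ± 14.8 for Chil3 and 21.0 ± 1.38 for Tgm2 (SD, n = 4). Tgm2 thus stood above Chil3 in CKO and below it in FLOX. Below these came Flt1, Matk, Il1rn, Chil4 and Ear2 in CKO, at 14.1, 8.23, 2.62, 1.48 and 0.0583 CPM per kilobase on average, and Flt1, Matk, Chil4, Il1rn and Ear2 in FLOX, at 13.7, 12.5, 6.78, 1.65 and 0.314. On this scale neighbours in each order had separate library ranges except Flt1 and Matk in FLOX (11.5 to 15.6 and 11.4 to 14.2). The scale depends on the length chosen. Per kilobase of the longest coding transcript, Flt1 averaged 27.6 CPM and Chil3 25.3 CPM in CKO, which changes their order there. In FLOX the order stayed, with Tgm2 and Flt1 both at 26.9 and Matk at 25.7 CPM per kilobase.

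The FLOX libraries differed among themselves, both for the called gene Retnla and for the genes that did not pass the test. Retnla and Rnase2a were highest in FLOX replicates 3 and 6, where Mrc1 and Flt1 were lowest, and CKO replicate 2 had the highest Retnla and Rnase2a and the lowest Mrc1 and Flt1 of the CKO libraries. In alternatives chosen after the data were seen, Flt1 had a log2 fold change of -0.13 (edgeR adjusted p = 0.0957) without FLOX replicates 3 and 6 and 0.21 (edgeR adjusted p = 0.0191) without FLOX replicates 4 and 7. Mrc1 had 0.09 (edgeR adjusted p = 0.25) and 0.31 (0.00243), and Rnase2a -0.01 (0.93) and -0.24 (0.0256), in the same order. Retnla stayed lower in CKO, at -0.91 and -1.28. The SD over the mean was smallest for Mrc1 in CKO (5.30%) and largest for Chil4 in CKO (18.9%) among the 9 tested genes.

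**Figure D3:**
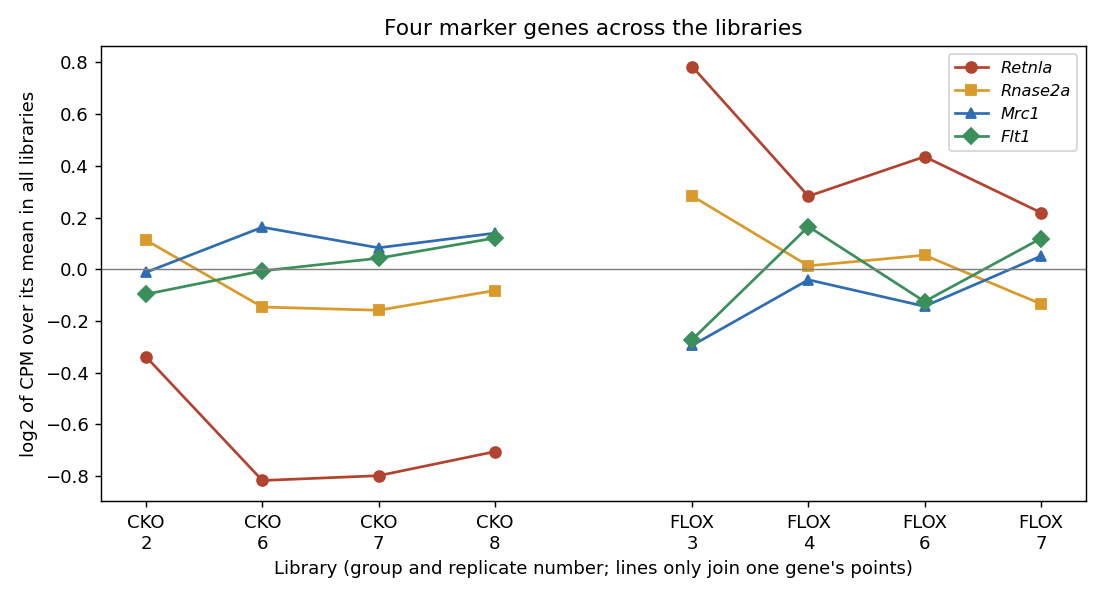
Log2 of CPM over the gene's mean in all libraries (vertical axis) for Retnla, Rnase2a, Mrc1 and Flt1 in each library, CKO left and FLOX right; lines only join points of 1 gene. FLOX replicates 3 and 6 sit high for Retnla and Rnase2a and low for Mrc1 and Flt1, and Retnla is lower in all CKO libraries.

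The genes most alike in pattern were named by the highest Pearson r of log2 CPM over the 8 libraries, given as a description. The libraries fall into separate groups, which by itself raises r for any gene that differs between them. Chil3 was most like Chil4 (r = 0.998), Ostm1 (0.997) and Tifa (0.997). Retnla was most like Wdr45 (r = 0.997), M6pr (0.997) and Itfg1 (0.996). Mrc1 was most like Ankfy1 (r = 0.990), Peak1 (0.990) and Jade1 (0.989).

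Other genes known from IL-4 stimulated macrophages were also split in direction. Of 32 tested, 6 were higher and 13 lower in CKO, or 59.4% called against 45.4% of all tested genes, with a median log2 fold change of -0.13. This list and those below were chosen with earlier results of these data known, so their shares of called genes are no independent measure. Arg1, which encodes arginase 1, was at 441, 567, 689 and 679 CPM in CKO replicates 2, 6, 7 and 8, against 249, 234, 228 and 215 CPM in FLOX replicates 3, 4, 6 and 7. It was thus higher in every CKO library (edgeR log2 fold change 1.36, SE 0.12, adjusted p = 5.18e-06), opposite to Chil3 and Retnla. The adhesion molecule Cdh1 (log2 fold change 2.84), the transcription factor Myc (1.62), the elastase Mmp12 (0.75), the scavenger receptor Cd36 (0.43) and the lectin Mgl2 (0.41) were the other higher genes. The 6 falls of smallest p were those of the fatty acid binding protein Fabp4 (log2 fold change -1.80), the proton pump subunit Atp6v0d2 (-1.20), fibronectin Fn1 (-1.53), the nuclear receptor Pparg (-0.57), the ligand of PD-1 Pdcd1lg2 (-1.03) and the glucan receptor Clec7a (-0.60). The transcription factors Irf4 (-0.11, edgeR adjusted p = 0.359) and Klf4 (0.07, edgeR adjusted p = 0.404) did not pass the test.

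Of 15 tested genes of IL-4 receptor signalling, 0 were higher and 6 were lower in CKO, or 40.0% called, with a median log2 fold change of -0.17. Over all tested genes 45.4% were called, 23.8% higher and 21.6% lower. Il4ra averaged 46.1 ± 2.11 CPM in CKO libraries and 56.3 ± 4.90 CPM in FLOX libraries (SD, n = 4 each; edgeR log2 fold change -0.29, SE 0.07, adjusted p = 0.00631). Stat6 averaged 230 ± 9.39 CPM in CKO and 259 ± 4.96 CPM in FLOX (edgeR log2 fold change -0.17, SE 0.05, adjusted p = 0.0202). These were small differences: the Stat6 call was lost without CKO replicate 6 (edgeR adjusted p = 0.1), 7 (0.0863) or 8 (0.0928). Cebpb (log2 fold change -0.44), Stat3 (-0.42), Jak1 (-0.25) and Tyk2 (-0.21) were also lower. The Jak1 call was lost without CKO replicate 6 (edgeR adjusted p = 0.0804) or 7 (0.0768), and the Tyk2 call without CKO replicate 6 (0.0907), 7 (0.109) or 8 (0.0812) or FLOX replicate 7 (0.0549). Without FLOX replicates 4 and 7 together both calls were lost too, Jak1 at -0.11 (edgeR adjusted p = 0.107) and Tyk2 at -0.14 (0.0612).

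**Figure D4:**
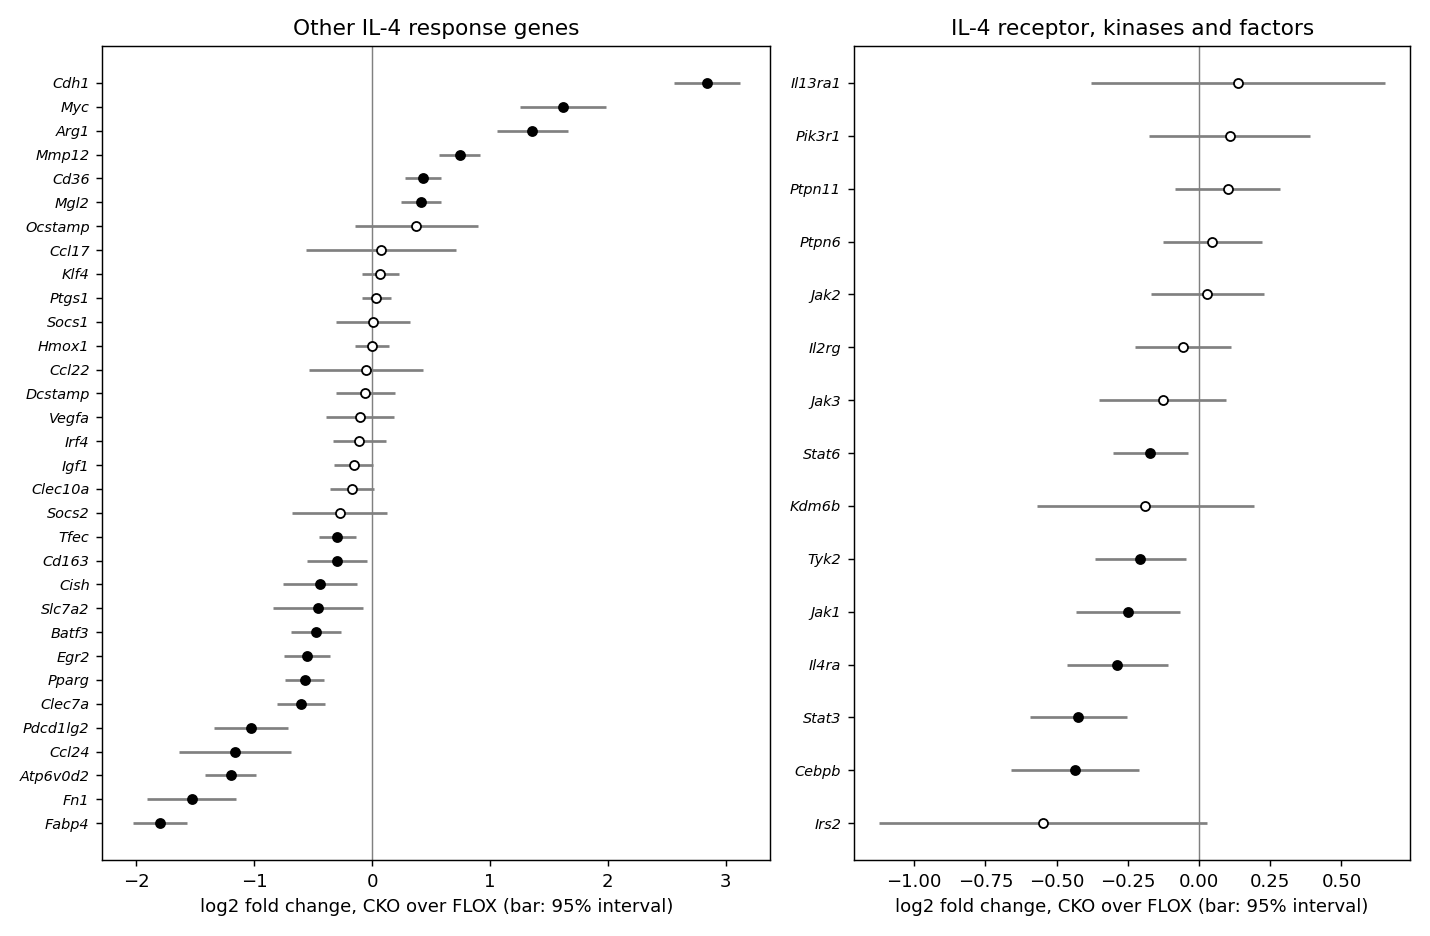
Log2 fold change of CKO over FLOX (horizontal axes) with 95% intervals for other IL-4 response genes (left) and IL-4 receptor signalling genes (right); filled circles passed an adjusted p of 0.05. The left panel runs from 2.84 for Cdh1 to -1.80 for Fabp4, and filled points in the right panel all lie below 0.

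Relatives of the marker genes were mixed in direction too, where 45.4% of all tested genes were called, 23.8% higher and 21.6% lower in CKO. Among the interleukin 1 family, 3 of 7 tested genes were higher and 2 lower in CKO: the IL-33 receptor Il1rl1 (log2 fold change 1.84), the shared receptor chain Il1rap (0.88) and Il18 (0.54) were higher, and Il1r1 (-0.63) and the IL-18 inhibitor Il18bp (-0.45) were lower. Of 7 VEGF receptors and ligands 4 were higher, namely Vegfc (log2 fold change 0.82), the receptor Kdr (0.61), the co-receptor Nrp1 (0.40) and Pgf (0.96), and Vegfb was lower (-0.32). The Vegfb call was lost without CKO replicate 6 (edgeR adjusted p = 0.0593), 7 (0.0775) or 8 (0.0846) or FLOX replicate 3 (0.0522) or 6 (0.0679). In the SRC family, the kinases that Matk acts on, Fyn (log2 fold change 0.41), Lyn (0.39) and Fgr (0.31) were higher and Src was lower (-0.96) in CKO. The Fgr call was lost without CKO replicate 6 (edgeR adjusted p = 0.0526) or FLOX replicate 4 (0.0712) or 6 (0.0712).

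Of 6 tested relatives of the ribonucleases, Rnase6 was higher (log2 fold change 0.30) and Rnase4 (-0.50), Ang (-0.50) and Ang2 (-0.75) were lower in CKO. Rnase4 and Ang overlap in the genome, so their counts are uncertain. The Ang2 call was lost without CKO replicate 6 (edgeR adjusted p = 0.0715), 7 (0.0816) or 8 (0.0706) or FLOX replicate 6 (0.0767). Of 3 tested transglutaminase genes, F13a1 was higher (log2 fold change 0.83; mean CPM 1.00 in CKO, 0.548 in FLOX) and Tgm1 lower (mean CPM 0.952 in CKO, 1.93 in FLOX). The F13a1 call was lost without CKO replicate 2 (edgeR adjusted p = 0.0548), 6 (0.0618) or 8 (0.0533) or FLOX replicate 4 (0.0632) or 6 (0.0558). Of the chitinase-like relatives 1 of 3 tested, the lysosomal chitobiase Ctbs, was higher (0.35), and of the mannose receptor family Pla2r1 (1.79), at 2.47 ± 0.272 CPM in CKO libraries and 0.732 ± 0.296 CPM in FLOX libraries (SD, n = 4 each), was 1 of 2 tested.

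The summed levels of some marker lists of cells that the cultures could hold differed between the groups. Of 10 macrophage markers 1 was higher and 4 were lower in CKO, or 50% called. Over all tested genes 45.4% were called, 23.8% higher and 21.6% lower, so this count is near that share. The summed level of the macrophage markers was 7117 to 8353 CPM in CKO and 13483 to 14971 CPM in FLOX. Most of the gap between these sums was Lyz2, which carries the Cre insertion, at 1809 to 2387 CPM in CKO and 6906 to 8294 CPM in FLOX. The sums are thus no measure of the macrophage share of the cultures. Csf1r, the receptor of the macrophage growth factor, averaged 1737 ± 185 CPM in CKO libraries and 2327 ± 44.2 CPM in FLOX libraries (SD, n = 4 each; log2 fold change -0.42, edgeR adjusted p = 0.000648). Fcgr1 went the other way, at 60.4 to 63.0 CPM in CKO and 27.2 to 33.3 CPM in FLOX. The ranges overlapped for Adgre1 (1143 to 1209 CPM in CKO, 1145 to 1191 in FLOX) and Itgam (542 to 585 in CKO, 476 to 569 in FLOX). Of 12 neutrophil and precursor markers 3 of 5 tested were higher, with sums of 7.71 to 13.5 CPM in CKO and 4.19 to 6.73 CPM in FLOX, and Elane and Retnlg at 0 in every library. The 2 tested of 7 megakaryocyte and platelet markers and the 1 tested of 6 dendritic cell markers did not pass edgeR's test, and the sums of both lists overlapped between the groups. No lymphocyte or stromal marker had enough counts to be tested, and their sums overlapped too. The part of these lists in the values of the 10 genes was not tested.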

How the data were processed

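Total RNA of 4 CKO and 4 FLOX cultures was sequenced as paired-end reads per the labels' protocols, with VAHTS Universal V6 libraries. Reads were aligned to mm10 with HISAT2 2.0.5 and counted with HTSeq, per the submitters' processing notes. Not given in the sources used here are the HTSeq version, annotation and strandedness. The deposited values are raw counts of read pairs per gene symbol, in 1 file per library. The series table held the same values, with 0 columns lacking a sample, and 27 of its names differed, so the single files were used. Unassigned pairs, 28.3% to 33.7% of all, stayed out of library sizes. Multiply aligned pairs, 5.03% to 6.01%, were among them.

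The fit used edgeR 4.0.16 in R 4.3.3 (filterByExpr with minimum count 10 and minimum total 15, TMM scaling, robust quasi-likelihood F test). Genes were called at 0.05 after Benjamini-Hochberg adjustment over 11519 tested genes. Standard errors are the log2 fold change divided by the root of F; 95% intervals take 6 degrees of freedom. Replicates differed by more than sampling noise in every pair (chi-square over degrees of freedom 2.45 to 27.8), so none was merged. Positions and exon lengths are those of GENCODE M21, and promoters those of RefSeq. Intervals on counts cover counting error only.

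Named genes were the 10 members, Opa1 and Lyz2, up to 6 called genes of smallest p per list and direction, and Arg1, Il4ra, Stat6, Pparg, Irf4, Klf4 and Il1b; Csf1r, Adgre1, Pecam1, Vwf and Rprd1b were named after their values were seen. A gene that this rule selects is not reported here. The members and all lists were chosen with earlier results of these data known. Alternatives were upper-quartile and RLE factors, a filter of 1 CPM in 4 libraries or none, limma-voom (limma 3.58.1), DESeq2 1.42.0, a block for the replicate number, removal of the 20 most abundant genes, each library left out, near-identical genes summed and, added later, pairs of FLOX libraries left out.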

Additional observations from a re-analysis of the deposited data

How the results depend on the processing

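Chil3, Chil4, Retnla, Tgm2, Il1rn and Matk kept direction and call in every alternative run. Genes called ranged from 3503 to 6090, against 5231 (4273 to 5210 without single libraries), and members called from 6 to 9. The log2 fold change of Mrc1, not called, was called with upper-quartile factors (0.20, edgeR adjusted p = 0.0483), DESeq2 (0.20, adjusted p = 0.0438), limma-voom (0.20, adjusted p = 0.0494), the 20 most abundant genes removed (0.22, edgeR adjusted p = 0.0454) and without FLOX replicates 4 and 7 (0.31), and ran from 0.14 to 0.25 without single libraries. Rnase2a was called without FLOX replicates 4 and 7 (-0.24) and ran from -0.19 to -0.05 without single libraries. Flt1 was called without FLOX replicates 4 and 7 (0.21), turned in sign without FLOX replicates 3 and 6 (-0.13), and ran from -0.041 to 0.10 without single libraries. Irf4 turned to 0.045 without FLOX replicates 4 and 7 and was called lower without FLOX replicates 3 and 6 (-0.25, edgeR adjusted p = 0.00974). The calls of Jak1, Tyk2 and F13a1 ended without FLOX replicates 4 and 7. Those of Vegfb, Fgr, Ang2 and F13a1 ended without FLOX replicates 3 and 6. The cause of these shifts was not tested. Only replicate numbers 6 and 7 occur in both groups, and the deviations of same-numbered libraries correlated at 0.14 and -0.07, and no label says what a number marks, so pairing was not established. With the replicate number as a block 3503 genes and 6 members were called. Mrc1 then had a log2 fold change of 0.17 (edgeR adjusted p = 0.258). The calls of Il4ra, Stat6, Tyk2, Ctbs, F13a1, Tgm1, Il18, Il18bp and Fgr ended. Libraries with a number found only in CKO or only in FLOX add nothing to the group difference in the block fit. That difference rested on replicates 6 and 7 of each group, with fewer residual degrees of freedom than the 6 of the main fit. Whether the lost calls come from the block itself or from the fewer libraries was not tested. Ear2, at 0 to 6 counts per library, is limited by depth: 3 counts, the limit that a count of 0 allows, correspond to 0.162 to 0.251 CPM.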
